A study of Mus musculus with 4 samples.

Results

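The 49 genes described here carry out and time the division of a cell, from the cyclins of G1 phase through DNA replication to the separation of chromosomes. They were chosen by symbol from the deposited gene count table, in which each of the 49 names matched 1 of 54532 genes. All 49 were measured in every comparison, with at least 56 reads over the pair of libraries compared. RNA was sequenced in bulk from sorted thymic epithelial cells of mice on a C57BL/6 background: medullary cells (mTEC, sorted as Ly51-negative and UEA1-positive) lacking SCD1, a fatty acid desaturase, medullary cells of littermate controls (WT), cortical cells (cTEC, Ly51-positive and UEA1-negative) lacking SCD1, and cortical cells of WT littermates. Each of these 4 groups had 1 library, so no difference below has a replicate check, no p-value was computed, and intervals cover counting error only. Nothing about the knockout allele, the age and sex of the mice or the number of mice per library is given in the sources used.

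In the cell cycle, D cyclins released by growth signals act with CDK4 and CDK6 on the retinoblastoma proteins and free E2F factors, which switch on the genes of DNA replication. Later, B-MYB and FOXM1 switch on the mitotic genes, so that transcripts of replication peak in S phase and transcripts of mitosis in G2 phase and mitosis. CDK inhibitors such as p21 and p27 hold cells back, and many cells that have left the cycle carry them at high levels. Both kinds of thymic epithelial cell are known to turn over, with dividing cells among immature medullary cells.

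The libraries held 17051620 reads in SCD1 KO mTEC and 16467844 in WT mTEC, and 18151725 reads in SCD1 KO cTEC and 15740383 in WT cTEC. Marker genes of identity separated the populations. Enpep, which encodes the sort marker Ly51, stood at 24.3 CPM (reads scaled to library size) in SCD1 KO mTEC and 22.9 CPM in WT mTEC, against 219.7 in SCD1 KO cTEC and 185 in WT cTEC. Aire, the medullary regulator of self-antigen expression, stood at 1263 CPM in SCD1 KO mTEC and 1267 CPM in WT mTEC, against 33.7 in SCD1 KO cTEC and 37.6 in WT cTEC. Psmb11, the cortical thymoproteasome subunit, stood at 58.4 CPM in SCD1 KO mTEC and 41.4 in WT mTEC, against 696 in SCD1 KO cTEC and 554 in WT cTEC. Scd1 itself stood at 15.8 CPM in SCD1 KO mTEC against 76.9 in WT mTEC, and at 4.16 CPM in SCD1 KO cTEC against 21.3 in WT cTEC. Transcripts of 18 thymocyte marker genes were present in every library, with summed levels of 445 CPM in SCD1 KO mTEC, 368 in WT mTEC, 616 in SCD1 KO cTEC and 473 in WT cTEC. None of these 18 genes was at 0 reads in any library. Developing thymocytes divide, and what part of the levels below they contributed was not tested.

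The first comparison asked how the cell cycle program differed between medullary and cortical epithelium, in each genotype. Genes of mitosis were higher in mTEC than in cTEC, by a median log2 ratio of 1.80 in SCD1 KO and 1.90 in WT, genes of DNA replication by less (0.54 and 0.41), and the genes of p21, p27 and cyclin D3 were lower in mTEC. By a rule of at least 50 reads over the pair, at least 2-fold and a 95% counting interval that excludes equality, 23 of 49 genes were higher in mTEC than in cTEC within SCD1 KO mice, where 19.8% of all genes tested passed in that direction. Within WT mice 29 of 49 passed, against 19.0% of all genes. None of the 49 genes was lower in mTEC by this rule, although 8.96% of all genes in SCD1 KO and 8.52% in WT were. The median log2 ratio of mTEC over cTEC was 0.92 over the 49 genes in SCD1 KO and 1.16 in WT, while over all genes it was −0.08 in SCD1 KO and −0.05 in WT. In bulk samples, a larger share of dividing cells and more RNA of these genes per cell cannot be told apart. For 44 of 49 genes both mTEC libraries lay above both cTEC libraries, which held for 37.7% of all genes. The exceptions below were Cdkn1a, Cdkn1b and Ccnd3, a position that 45.3% of all genes took, and Mcm4 and Cdc6 overlapped. The thymocyte markers went the other way, with 0 of 16 measured genes higher in mTEC in SCD1 KO and 3 of 16 in WT. Endothelial markers were mixed, with 2 of 5 higher in SCD1 KO and 2 of 4 in WT. So were fibroblast and pericyte markers, with 3 of 6 higher in each genotype. Both measured erythroid markers, 2 of 2, were higher in mTEC in each genotype. The part of these cells was not tested. Markers of B cells and of myeloid and dendritic cells went the same way as the cell cycle genes: 4 of 4 measured B cell genes and 8 of 9 myeloid genes were higher in mTEC in each genotype. Their summed levels were 25.5 CPM in SCD1 KO mTEC and 24.4 in WT mTEC against 5.25 in SCD1 KO cTEC and 4.58 in WT cTEC for B cells, and 388 and 351 against 141 and 115 for myeloid cells, and their part in the result was not tested.

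**Figure D1:**
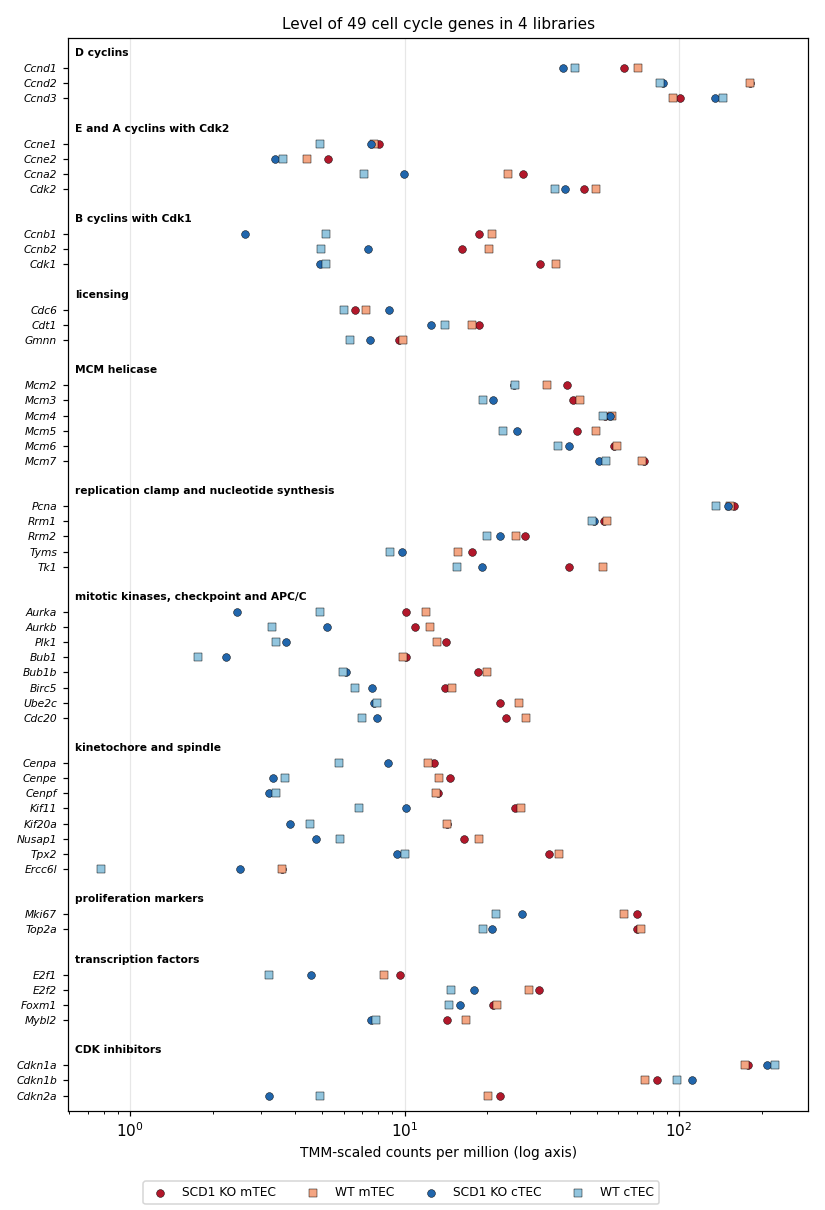
Level of each of the 49 genes (TMM-scaled CPM, log axis) in the libraries, 1 symbol per library, grouped by role. Red and orange symbols (mTEC) lie right of blue symbols (cTEC) for most genes, with wide gaps in the B cyclin, mitotic kinase and spindle groups and small gaps for Pcna, Rrm1 and Mcm4.

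Cdk1 and its B cyclins, the engine of entry into mitosis, had the highest median ratio of the 11 role groups, at 2.66 in SCD1 KO and 2.03 in WT. Cdk1 (ENSMUSG00000019942, mm10 chromosome 10, 69335146 to 69352938, minus strand), the mitotic kinase, stood at 31.2 CPM in SCD1 KO mTEC against 4.91 in SCD1 KO cTEC, and at 35.5 CPM in WT mTEC against 5.17 in WT cTEC. Both mTEC libraries were far above both cTEC libraries, with log2 ratios of 2.66 in SCD1 KO (95% counting interval 2.34 to 3.02) and 2.77 in WT (2.44 to 3.14). Ccnb1, the B cyclin essential for mitosis (chromosome 13, 100778650 to 100786570, minus strand), stood at 18.7 CPM in SCD1 KO mTEC against 2.62 in SCD1 KO cTEC, and at 20.9 CPM in WT mTEC against 5.17 in WT cTEC. Its log2 ratio was 2.82 in SCD1 KO and 2.01 in WT. Ccnb2, the Golgi-associated B cyclin, stood at 16.2 CPM in SCD1 KO mTEC against 7.36 in SCD1 KO cTEC, and at 20.4 CPM in WT mTEC against 4.97 in WT cTEC. The mTEC libraries were higher for all 3 genes, and for the B cyclins the size of the gap differed between genotypes, in opposite order.

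The same held across the 19 genes of mitosis, which comprise these 3, 8 mitotic kinases and regulators of the spindle checkpoint and anaphase-promoting complex, and 8 kinetochore and spindle genes. All 19 were above 0 on the log2 scale in both genotypes. The share of all genes above 0 was not counted here, and their medians were −0.08 in SCD1 KO and −0.05 in WT. By the 2-fold rule 16 of 19 passed in SCD1 KO, against 19.8% of all genes, and 19 of 19 in WT, against 19.0%. Log2 ratios of the 8 kinases and regulators ranged from 0.88 for Birc5 (survivin, of the chromosomal passenger complex) to 2.16 for Bub1 (a spindle checkpoint kinase) in SCD1 KO, and from 1.16 to 2.46 for the same genes in WT. Plk1, the polo kinase of spindle assembly, was 3.79 times higher in mTEC in SCD1 KO and 3.82 times in WT. Among kinetochore and spindle genes, Cenpe, a kinetochore motor, had log2 ratios of 2.13 in SCD1 KO and 1.86 in WT, and Tpx2, which activates Aurora A on the spindle, 1.84 and 1.86. Cenpa, the centromeric histone, lay lower at 0.55 in SCD1 KO and 1.08 in WT, and Ercc6l was lowest in SCD1 KO at 0.51, with an interval that includes equality (−0.06 to 1.10).

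The proliferation marker Mki67 (chromosome 7, 135689784 to 135716361, minus strand), which coats mitotic chromosomes, stood at 70.3 CPM in SCD1 KO mTEC against 26.7 in SCD1 KO cTEC, and at 62.7 CPM in WT mTEC against 21.6 in WT cTEC. Top2a, the topoisomerase that untangles replicated DNA, stood at 70.1 CPM in SCD1 KO mTEC against 20.8 in SCD1 KO cTEC, and at 72.3 CPM in WT mTEC against 19.3 in WT cTEC. Both markers were higher in mTEC in each genotype, Mki67 by log2 ratios of 1.40 in SCD1 KO and 1.54 in WT and Top2a by 1.75 and 1.90.

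Replication genes differed less. The 14 S phase genes include the origin licensing factors Cdc6 and Cdt1, the licensing inhibitor Gmnn and the 6 subunits of the MCM helicase. The others are the sliding clamp Pcna and the nucleotide synthesis genes Rrm1, Rrm2, Tyms and Tk1. By the 2-fold rule 1 of 14 (7.14%) was higher in mTEC in SCD1 KO (Tk1), under the 19.8% of all genes, and 3 of 14 (21.4%) in WT (Tk1, Mcm3 and Mcm5), near the 19.0% of all genes. Pcna stood at 158 CPM in SCD1 KO mTEC against 150.5 in SCD1 KO cTEC, and at 153 CPM in WT mTEC against 137 in WT cTEC. Its log2 ratio was 0.07 in SCD1 KO, with an interval that includes equality (−0.01 to 0.15), and 0.17 in WT (0.08 to 0.25). The large subunit gene of ribonucleotide reductase, Rrm1, was similarly close, at 0.13 in SCD1 KO and 0.19 in WT, and Mcm4 had ratios of −0.06 (−0.19 to 0.07) and 0.10 (−0.03 to 0.24). The sign of Mcm4 in SCD1 KO turned when libraries were scaled by their totals. Among the other MCM subunits the log2 ratios ranged from 0.54 (Mcm6 and Mcm7) to 0.98 (Mcm3) in SCD1 KO and from 0.38 (Mcm2) to 1.17 (Mcm3) in WT. Tk1, the thymidine salvage kinase, had the widest gap of the group, at 39.6 CPM in SCD1 KO mTEC against 19.1 in SCD1 KO cTEC, and at 52.6 CPM in WT mTEC against 15.5 in WT cTEC.

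**Figure D2:**
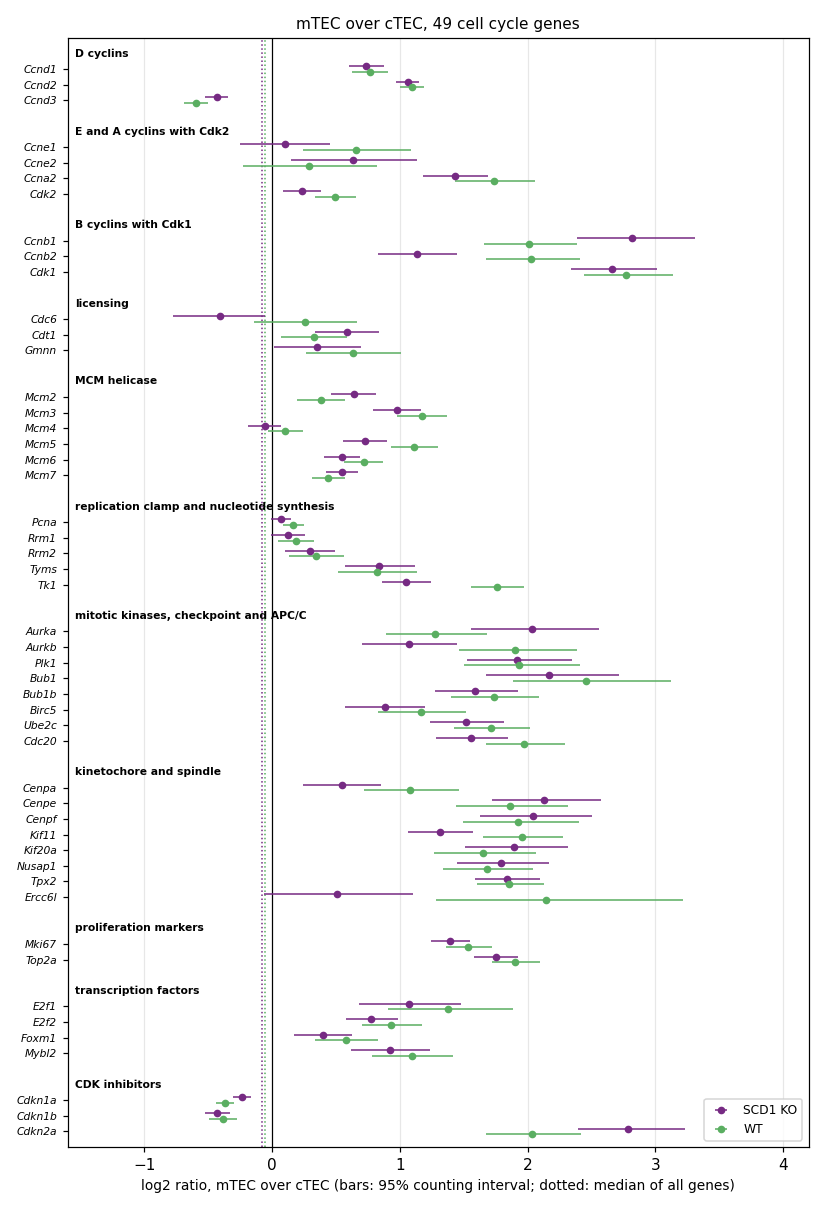
Log2 ratio of mTEC over cTEC for each of the 49 genes in SCD1 KO (purple) and WT (green), with 95% counting intervals as bars, a solid line at equality and dotted lines at the medians of all genes. Most mitotic genes lie between 1 and 3, most S phase genes between 0 and 1, and Ccnd3, Cdkn1a and Cdkn1b lie below 0 in both genotypes.

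Summed over the group, the 19 mitosis genes stood at 323 CPM in SCD1 KO mTEC against 104 in SCD1 KO cTEC, and at 350.2 CPM in WT mTEC against 96.9 in WT cTEC. The 14 S phase genes stood at 639 CPM in SCD1 KO mTEC against 497 in SCD1 KO cTEC, and at 652 CPM in WT mTEC against 466 in WT cTEC. The log2 ratio of the sums was 1.64 (1.57 to 1.72) for mitosis and 0.36 (0.32 to 0.40) for S phase in SCD1 KO, and 1.85 (1.77 to 1.94) and 0.48 (0.44 to 0.53) in WT. The intervals of mitosis and S phase did not overlap in either genotype. Per read of an S phase gene there were 0.506 reads of mitosis genes in SCD1 KO mTEC and 0.537 in WT mTEC, against 0.208 in each cTEC library. Abundant genes weigh most in such sums, and Pcna alone contributed 2778 of 11234 S phase reads in SCD1 KO mTEC and 2089 of 7125 in WT cTEC.

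**Figure D3:**
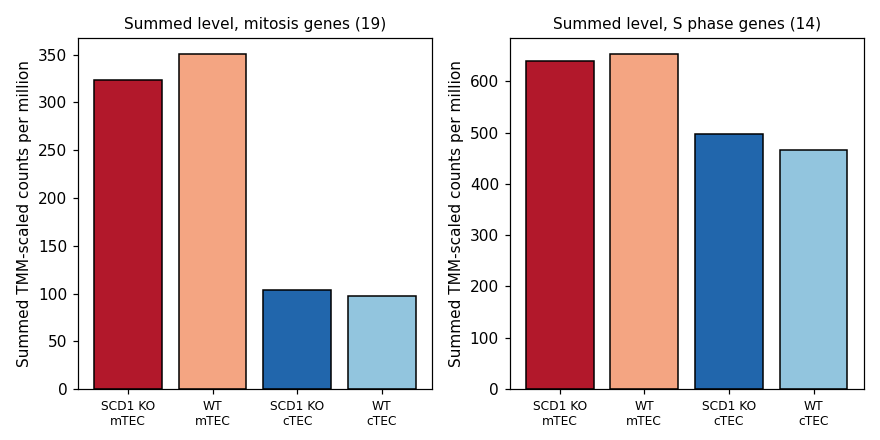
Summed level (TMM-scaled CPM, axes from 0) of the 19 mitosis genes and the 14 S phase genes in each library, 1 bar per library without replicates. Mitosis genes stand at 323 and 350.2 for mTEC against 104 and 96.9 for cTEC, and S phase genes at 639 and 652 for mTEC against 497 and 466 for cTEC, SCD1 KO first in each pair.

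The proximal promoters are shown for the mitotic kinase gene Cdk1, the proliferation marker Top2a and the S phase helicase genes Mcm6 and Mcm5. Whether their motifs had a part in the levels was not tested. Each is the stretch of 150 bases before the RefSeq gene start (GRCm38.p6, the mm10 assembly, 5′ to 3′ on the gene's strand). Capitals mark 3 motifs, searched on both strands: the CCAAT box bound by NF-Y (CCAAT), the cell cycle genes homology region bound by the DREAM and B-MYB complexes (TTTGAA or TTCGAA), and an E2F core (TTTNNCGC). The positions are chr10:69352913-69353062 for Cdk1, chr11:99024190-99024339 for Top2a and chr1:128359706-128359855 for Mcm6, all on the minus strand, and chr8:75109359-75109508 on the plus strand for Mcm5.
Cdk1: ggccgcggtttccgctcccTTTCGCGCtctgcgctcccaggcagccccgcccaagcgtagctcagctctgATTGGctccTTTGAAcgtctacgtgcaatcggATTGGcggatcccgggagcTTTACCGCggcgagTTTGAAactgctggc
Top2a: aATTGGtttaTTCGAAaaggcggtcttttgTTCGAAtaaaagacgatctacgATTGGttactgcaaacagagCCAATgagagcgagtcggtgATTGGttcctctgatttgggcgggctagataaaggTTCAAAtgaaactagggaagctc
Mcm6: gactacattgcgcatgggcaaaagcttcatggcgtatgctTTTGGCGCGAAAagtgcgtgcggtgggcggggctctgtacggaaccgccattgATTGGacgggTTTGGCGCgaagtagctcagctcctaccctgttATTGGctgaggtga
Mcm5: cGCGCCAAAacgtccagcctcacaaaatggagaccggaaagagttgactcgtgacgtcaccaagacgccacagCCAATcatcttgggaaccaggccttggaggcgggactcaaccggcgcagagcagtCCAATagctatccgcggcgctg
The Cdk1 stretch holds 2 homology region matches, 15 and 71 bases before the start, with 2 CCAAT boxes and 2 E2F cores. Top2a holds 3 homology region matches and 4 CCAAT boxes and no E2F core. Mcm6 holds 3 E2F cores, of which the farthest pair, 110 and 106 bases before the start, overlap each other, with 2 CCAAT boxes, and Mcm5 holds 1 E2F core and 2 CCAAT boxes. Neither helicase stretch holds a homology region match. Of the other helicase genes, Mcm2 and Mcm7 each have 1 such match in the longer windows described next.

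Promoter windows of 300 bases (250 before to 50 after the start) were found for 38 of 49 genes, in 43 windows. The homology region letters were in 13 of 17 windows of mitosis genes and markers (76.5%) and in 2 of 13 windows of S phase genes (15.4%), against 19.2% of 32851 windows of all genes. The E2F core was in 1 of 17 windows of mitosis genes and markers (5.88%) and in 7 of 13 of S phase genes (53.8%), against 5.17% of all. At least 2 CCAAT boxes were in 11 of 17 windows (64.7%) and 5 of 13 (38.5%), against 11.7% of all. In the windows of the 38 genes, matches of different motifs overlapped in 1 case. A match is a string of letters and not a measured site.

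The cyclins that open the cycle differed by family member. Ccnd2 stood at 182 CPM in SCD1 KO mTEC against 87.0 in SCD1 KO cTEC, and at 181 CPM in WT mTEC against 84.9 in WT cTEC. Ccnd1 stood at 63.01 CPM in SCD1 KO mTEC against 37.8 in SCD1 KO cTEC, and at 70.6 CPM in WT mTEC against 41.6 in WT cTEC. These D cyclins were higher in mTEC, by log2 ratios of 1.06 in SCD1 KO and 1.09 in WT for Ccnd2 and of 0.74 and 0.76 for Ccnd1. Ccnd3, the D cyclin that thymocytes also rely on, stood at 100.5 CPM in SCD1 KO mTEC against 136 in SCD1 KO cTEC, and at 95.2 CPM in WT mTEC against 144 in WT cTEC. It was lower in mTEC in both genotypes (−0.43 in SCD1 KO and −0.60 in WT). Set per kilobase of the gene length in the file, which allows genes to be compared, Ccnd2 made up 43.7% of the D cyclin level in SCD1 KO mTEC and 42.7% in WT mTEC, and Ccnd3 47.2% in SCD1 KO cTEC and 47.9% in WT cTEC. The leading D cyclin thus was Ccnd2 in both mTEC libraries and Ccnd3 in both cTEC libraries.

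Ccna2, the A cyclin of S phase and G2, stood at 26.9 CPM in SCD1 KO mTEC against 9.98 in SCD1 KO cTEC, and at 23.8 CPM in WT mTEC against 7.13 in WT cTEC, 2.69 and 3.33 times higher in mTEC. The E cyclins act with CDK2 at the start of replication. Ccne1 stood at 8.08 CPM in SCD1 KO mTEC against 7.53 in SCD1 KO cTEC, and at 7.74 CPM in WT mTEC against 4.91 in WT cTEC. Ccne2 stood at 5.24 CPM in SCD1 KO mTEC against 3.37 in SCD1 KO cTEC, and at 4.40 CPM in WT mTEC against 3.60 in WT cTEC. For Ccne1 the interval included equality in SCD1 KO (−0.25 to 0.46), and for Ccne2 it did in WT (−0.23 to 0.82). Cdk2 had log2 ratios of 0.24 in SCD1 KO and 0.50 in WT.

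All 4 transcription factors were higher in mTEC. E2f1, an activator of replication genes, stood at 9.62 CPM in SCD1 KO mTEC against 4.56 in SCD1 KO cTEC, and at 8.39 CPM in WT mTEC against 3.21 in WT cTEC. E2f2 stood at 30.7 CPM in SCD1 KO mTEC against 17.9 in SCD1 KO cTEC, and at 28.3 CPM in WT mTEC against 14.8 in WT cTEC. Both activating E2F genes were higher in mTEC, with log2 ratios of 1.07 in SCD1 KO and 1.38 in WT for E2f1 and of 0.78 and 0.93 for E2f2. Mybl2, which encodes B-MYB, stood at 14.3 CPM in SCD1 KO mTEC against 7.53 in SCD1 KO cTEC, and at 16.8 CPM in WT mTEC against 7.85 in WT cTEC. Foxm1, the forkhead factor of mitotic genes, stood at 21.1 CPM in SCD1 KO mTEC against 16.0 in SCD1 KO cTEC, and at 21.7 CPM in WT mTEC against 14.5 in WT cTEC. Its log2 ratios of 0.40 (0.17 to 0.63) in SCD1 KO and 0.58 (0.34 to 0.83) in WT were the lowest of the 4 factors.

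The CDK inhibitors divided. Cdkn1a, which encodes p21, stood at 178 CPM in SCD1 KO mTEC against 209.6 in SCD1 KO cTEC, and at 173 CPM in WT mTEC against 223 in WT cTEC. Cdkn1b, which encodes p27, stood at 83.04 CPM in SCD1 KO mTEC against 112 in SCD1 KO cTEC, and at 75.3 CPM in WT mTEC against 98.3 in WT cTEC. Both were lower in mTEC in each genotype, with log2 ratios between −0.43 and −0.23. Cdkn2a (chromosome 4, 89274471 to 89294653, minus strand), whose locus encodes the tumour suppressors p16 and p19, stood at 22.3 CPM in SCD1 KO mTEC against 3.19 in SCD1 KO cTEC, and at 20.2 CPM in WT mTEC against 4.91 in WT cTEC. It was 6.91 times higher in mTEC in SCD1 KO and 4.09 times in WT, and counts per gene do not separate its products. Per kilobase, Pcna and Cdkn1a led all 49 genes in every library, with 65.9 and 50.1 CPM per kilobase in SCD1 KO mTEC, 63.9 and 48.7 in WT mTEC, 62.7 and 59.0 in SCD1 KO cTEC, and 56.9 and 62.8 in WT cTEC. By the gene length in the file, Cdkn1a passed Pcna in WT cTEC only. That length was 2400 bases for Pcna and 3553 for Cdkn1a, while their longest transcripts held 1469 and 2031 distinct 50-base windows. The order by transcript length was not computed and may differ.

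Among related cell cycle genes outside the 49, those of mitosis also had the highest ratios. Of 60 further genes of mitosis and cytokinesis, 33 of 59 measured were higher in mTEC by the 2-fold rule in SCD1 KO, with a median log2 ratio of 1.26, and 39 of 58 in WT, with a median of 1.47. Of 40 further replication genes, 9 of 40 (22.5%) passed in SCD1 KO, near the 19.8% of all genes (median 0.38), and 12 of 39 (30.8%) in WT against 19.0% of all genes (median 0.48). Of 35 further regulators of G1 phase and checkpoints, 5 of 34 (14.7%) passed in SCD1 KO (median 0.11) and 8 of 35 (22.9%) in WT (median 0.19), both near the shares of all genes. The highest ratio was that of Cdc25c, the phosphatase that activates CDK1, with 200 reads in SCD1 KO mTEC against 13 in SCD1 KO cTEC, and 177 in WT mTEC against 8 in WT cTEC; 22.2% of its 50-base windows also occur in another gene.

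The second comparison asked whether loss of SCD1 went with a different level of the cell cycle genes in mTEC. The differences were small, and S phase, mitosis and marker genes of the SCD1 KO library stood close to those of WT. No gene of the 49 passed the 2-fold rule, which 0.504% of all genes passed as higher and 0.431% as lower. By a second, lower rule of at least 0.32 on the log2 scale with an interval that excludes equality, 0 of 49 were higher and 2 of 49 lower, Tk1 and Ccnb2, against 4.86% higher and 3.30% lower among all genes. The median log2 ratio of SCD1 KO over WT was −0.03 over the 49 genes and 0.01 over all genes, with 24 genes above 0 and 25 below, where 52.0% of all genes lay above. These shares lie near or under those of all genes. The summed mitosis genes stood at 323 CPM in SCD1 KO mTEC and 350.2 in WT mTEC, a log2 ratio of −0.12 (−0.17 to −0.06), and the S phase genes at 639 and 652 CPM, −0.03 (−0.07 to 0.01). Thymocyte markers were higher in the SCD1 KO mTEC library, 15 of 16 measured with a median of 0.27, as were 8 of 8 cTEC markers (0.23) and 4 of 5 endothelial markers (0.63). Both measured erythroid markers, 2 of 2, were also higher (0.27). Myeloid markers were above 0 in 5 of 9 (0.07), fibroblast and pericyte markers in 4 of 6 (0.10) and B cell markers in 2 of 4 (0.04). Of mTEC markers 4 of 8 were above 0 (0.02), and of general epithelial markers 2 of 5 (−0.02). Their part in the levels was not tested.

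Tk1 (chromosome 11, 117815526 to 117826092, minus strand) had 696 reads in SCD1 KO mTEC against 897 in WT mTEC, a log2 ratio of −0.41 (−0.55 to −0.27). Ccnb2 (chromosome 9, 70407692 to 70421547, minus strand) had 284 reads in SCD1 KO mTEC against 347 in WT mTEC (−0.33, −0.56 to −0.10). All 3 genes of the Cdk1 and B cyclin group lay below 0 in mTEC, with Cdk1 at −0.18 (−0.35 to −0.02) and Ccnb1 at −0.16 (−0.38 to 0.06). Mki67 lay the other way, with 1235 reads in SCD1 KO mTEC against 1069 in WT mTEC (0.16, 0.04 to 0.28), while Top2a had 1232 against 1233. Ratios of the 6 MCM subunits ranged from −0.23 for Mcm5 to 0.24 for Mcm2, members of the same complex. The D cyclins lay between −0.17 for Ccnd1 and 0.08 for Ccnd3, the transcription factors between −0.23 for Mybl2 and 0.20 for E2f1, and the CDK inhibitors between 0.04 and 0.14.

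The third comparison asked the same of cTEC, and here more genes differed, most of them higher in the SCD1 KO library. Ercc6l, a DNA translocase of mitotic chromosomes, was the 1 gene that passed the 2-fold rule, as higher, which 0.492% of all genes did, and none was lower (0.692% of all genes). This call rested on 56 reads and was lost at a minimum of 200 reads, and with DESeq2 size factors Aurka also passed, as lower. By the lower rule 8 of 49 (16.3%) were higher and 3 of 49 (6.12%) lower, where 5.42% of all genes were higher and 5.74% lower. The 8 were Ercc6l, Aurkb, Ccne1, Cenpa, Kif11, Ccnb2, Cdc6 and Ccna2, and the 3 lower were Aurka, Ccnb1 and Cdkn2a. The median log2 ratio over the 49 genes was 0.12, against 0.01 over all genes, with 31 genes above 0 and 18 below, where 52.4% of all genes lay above. Of the 49 genes, 15 had fewer than 200 reads over the cTEC pair, and among the 34 others 6 were higher and 0 lower by the lower rule. The share of all genes was not counted at 200 reads, so these 6 have no share to be set against. All 16 measured thymocyte markers were also higher in the SCD1 KO cTEC library, with a median of 0.38, as were 8 of 8 measured myeloid markers (0.27), 8 of 8 cTEC markers (0.33) and 3 of 4 endothelial markers (0.57), while 2 of 8 mTEC markers were above 0 (−0.21). Whether these cells took part in the cell cycle levels was not tested.

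Ercc6l (ENSMUSG00000051220, chromosome X, 102141716 to 102157091, minus strand) had 44 reads in SCD1 KO cTEC against 12 in WT cTEC, or 2.51 against 0.785 CPM, a log2 ratio of 1.64 with a wide interval (0.73 to 2.73). It had 63 reads (3.59 CPM) in SCD1 KO mTEC against 61 (3.58 CPM) in WT mTEC, so that the WT cTEC library was the low one among the 4. Aurkb, the Aurora kinase of the chromosomal passenger complex, had 91 reads in SCD1 KO cTEC against 50 in WT cTEC (0.66, 0.15 to 1.19), and 192 in SCD1 KO mTEC against 210 in WT mTEC. Kif11, the motor that separates the spindle poles, had 177 reads in SCD1 KO cTEC against 104 in WT cTEC (0.57, 0.21 to 0.93), and 442 in SCD1 KO mTEC against 451 in WT mTEC. Both genes differed in cTEC and had intervals that include equality in mTEC. Ccnb2 had 129 reads in SCD1 KO cTEC against 76 in WT cTEC (0.56, 0.15 to 0.99), and Cenpa 153 against 88 (0.60). Ccne1 had 132 against 75 (0.61), Cdc6 154 against 92 (0.54) and Ccna2 175 against 109 (0.48).

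Close relatives lay on opposite sides. Aurka (chromosome 2, 172356190 to 172370535, minus strand), the Aurora kinase of the spindle poles, had 43 reads in SCD1 KO cTEC against 75 in WT cTEC, a log2 ratio of −0.99 (−1.58 to −0.44), whereas Aurkb was higher. Ccnb1 had 46 reads in SCD1 KO cTEC against 79 in WT cTEC (−0.97, −1.54 to −0.44), whereas Ccnb2 was higher. Of the 50-base windows of Ccnb1, 42.1% occur in other genes, 4 of which are copies elsewhere in the genome. With the reads of those copies Ccnb1 had 54 reads in SCD1 KO cTEC against 83 in WT cTEC, so it was lower with them as well. Cdkn2a had 56 reads in SCD1 KO cTEC against 75 in WT cTEC (−0.61, −1.15 to −0.10). The other mitotic genes lay between −0.30 for Nusap1 and 0.33 for Bub1, with intervals that include equality.

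Replication genes in cTEC stood slightly higher in the SCD1 KO library. Of the 14 S phase genes 11 were above 0, where 52.4% of all genes lay above. By the lower rule 1 of 14 (7.14%) was higher, near the 5.42% of all genes, and 0 were lower. The sum of the 14 was 497 CPM in SCD1 KO cTEC and 466 in WT cTEC, a log2 ratio of 0.09 (0.05 to 0.14). Pcna had 2638 reads in SCD1 KO cTEC against 2089 in WT cTEC (0.14, 0.06 to 0.22), and all 5 clamp and nucleotide synthesis genes were above 0. Mki67 had 468 reads in SCD1 KO cTEC against 330 in WT cTEC (0.31, 0.10 to 0.51) and E2f2 314 against 226 (0.28, 0.03 to 0.53). The mitosis sum was 104 CPM in SCD1 KO cTEC and 96.9 in WT cTEC (0.10), with an interval that includes equality (−0.0026 to 0.20).

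**Figure D4:**
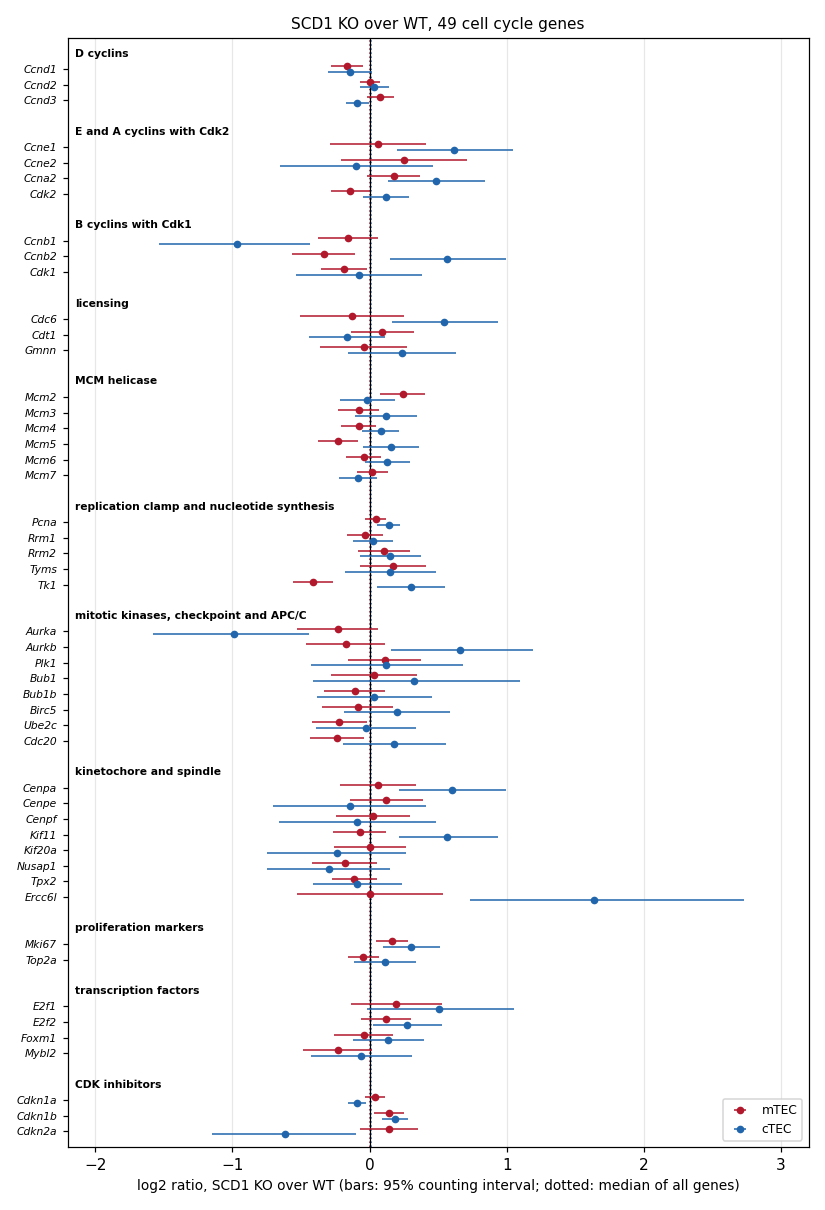
Log2 ratio of SCD1 KO over WT for each of the 49 genes in mTEC (red) and cTEC (blue), with 95% counting intervals as bars, a solid line at equality and dotted lines at the medians of all genes. Ratios in mTEC lie between −0.41 and 0.25, and those in cTEC between −0.99 (Aurka) and 1.64 (Ercc6l), with wider bars because fewer reads fell on these genes.

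Among the related genes, none passed the 2-fold rule between genotypes in either population. By the lower rule 13 of 55 further mitosis genes were higher and 0 lower in SCD1 KO cTEC, with a median log2 ratio of 0.21, against 5.42% higher among all genes. They included Kif22, a chromosome-arm motor, with 124 reads in SCD1 KO cTEC against 58 in WT cTEC (0.89, 0.44 to 1.37) and Mad2l1, the checkpoint protein MAD2, with 455 against 276 (0.52, 0.30 to 0.74). Of 37 further replication genes 2 were higher, 5.41% and so at the share of all genes, and of 33 regulators 0 were higher and 1, E2f7, was lower, against 5.74% lower among all genes. In mTEC 1 of 40 replication genes was higher and 0 were lower, 1 of 60 mitosis genes was higher and 2 were lower, and 0 of 35 regulators were higher and 1 was lower. Of all genes, 4.86% were higher and 3.30% lower.

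The genotype ratios of mTEC and cTEC were set against each other gene by gene, with an exact counting interval on the ratio of the ratios. For 14 of 49 genes the interval excluded equality, as it did for 22.9% of all genes. The genotype ratio in mTEC was the lower in 9 of the 14 and the higher in 5. Directions were not counted over all genes, so this split has no share to be set against. On the log2 scale the difference, mTEC minus cTEC, was −1.63 (−2.86 to −0.56) for Ercc6l, −0.71 for Tk1, −0.89 (−1.39 to −0.41) for Ccnb2, −0.83 (−1.44 to −0.24) for Aurkb and −0.64 (−1.06 to −0.23) for Kif11. It was 0.81 (0.23 to 1.42) for Ccnb1 and 0.76 (0.20 to 1.33) for Cdkn2a. By sign, 14 genes were higher in SCD1 KO in both populations, 8 were lower in both, 17 were lower in mTEC and higher in cTEC, and 10 were the reverse. Joint signs were not counted over all genes, so these counts have no share to be set against.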

How the data were processed

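The values deposited by the authors are raw counts of reads per gene for 4 libraries, whole numbers with different totals. Per the submitters' processing notes, CASAVA, HISAT2 2.0.5, featureCounts 1.5.0-p3 and mm10 were used. No annotation release, strand or multi-mapping setting is given in the sources used. The deposited table also holds gene length, of another (other) unit, used for levels per kilobase.

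Counts were scaled with edgeR 4.0.16 (R 4.3.3) by TMM, its trimmed-mean scaling, with factors between 0.966 and 1.03. Log2 ratios used a prior count of 0.5. Intervals are exact conditional binomial (Clopper-Pearson) 95% intervals, the ratio of ratios a conditional odds ratio. Genes with at least 50 reads over a pair counted as tested. With 1 library per group, no p-value was computed. The functions were tested on simulated data. Python 3.11.15, numpy 2.4.6, pandas 2.3.3, scipy 1.17.1 and matplotlib 3.10.9 were used.

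Copies were measured as the share of 50-base windows of the longest GENCODE M21 transcript found in another gene on either strand. The members, lists and rules were chosen with earlier results of these data known. Values are given in every library for cyclins, Cdk1, markers, transcription factors, CDK inhibitors, genes past the 2-fold rule between genotypes and the 5 with the ratio-of-ratios bound farthest from 0. Other members named singly, such as Aurka, Cenpa, Cdc6, Plk1, Cenpe and Tpx2, and the related genes named were chosen after their values were seen. Alternatives were other scalings (library totals and DESeq2 1.42.0 size factors), minimums of 200 reads or none, a prior of 2, and leaving out genes with 25% or more of windows in other genes.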

Additional observations from a re-analysis of the deposited data

Results flagged for a closer look

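For Tk1 and Ccnb2 the SCD1 KO library lay below WT in mTEC and above WT in cTEC, with both counting intervals excluding equality. The log2 difference of the genotype ratios, mTEC minus cTEC, was −0.71 for Tk1 and −0.89 for Ccnb2. With 1 library per group this difference was not tested between replicates. Over the 49 genes its interval excluded equality for 14, as it did for 22.9% of all genes tested.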

How the results depend on the processing

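All alternatives listed in the methods were run on the counts and medians of the 49 genes and of the related genes. Medians of the 49 genes kept their sign in all 4 comparisons under each alternative. Under library-total scaling the summed log2 ratios of mTEC over cTEC became 0.46 in SCD1 KO and 0.58 in WT for S phase and 1.73 and 1.95 for mitosis. Without genes with near-identical copies (Pcna and Mcm7 in that group) those of S phase became 0.46 and 0.63. In cTEC, 2 genes passed the 2-fold rule between genotypes with DESeq2 size factors (Aurka in addition) and 0 with a minimum of 200 reads, which left 34 genes and 6 past the lower rule. That minimum also gave 3 related genes in mTEC and 7 in cTEC by the lower rule, and 30 and 40 related genes by the 2-fold rule for mTEC over cTEC in SCD1 KO and WT, because fewer genes were tested. Shares of all genes were not counted at that minimum, so its counts of genes have no share to be set against. Of 196 single ratios, 6 moved outside their interval with library totals and 0 with DESeq2 size factors or a prior of 2. The sign turned with library totals for Ccnd2, Ercc6l and Kif20a between genotypes in mTEC and for Mcm4 between populations in SCD1 KO. No paired analysis was possible because each group has 1 library. Libraries could not be left out in turn for the same reason.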

Other observations

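Among the related cell cycle genes, E2f8 and Pttg1 had the lowest ratios of mTEC over cTEC in their lists in both genotypes. In the list of G1 and checkpoint regulators that holds E2f8, 16 of 34 measured genes lay below 0 in SCD1 KO and 14 of 35 in WT, and in the mitosis list that holds Pttg1 7 of 59 and 3 of 58 did. E2f8, an atypical E2F that represses replication genes, had 108 reads in SCD1 KO mTEC against 271 in SCD1 KO cTEC, and 102 in WT mTEC against 269 in WT cTEC, at log2 ratios of −1.33 in SCD1 KO and −1.55 in WT. Its closest relative E2f7 lay the other way, with 184 reads in SCD1 KO mTEC against 30 in SCD1 KO cTEC, and 172 in WT mTEC against 46 in WT cTEC. Pttg1, which encodes securin, the inhibitor of sister chromatid separation, had 621 reads in SCD1 KO mTEC against 1231 in SCD1 KO cTEC, and 608 in WT mTEC against 1137 in WT cTEC, or log2 −0.99 (−1.13 to −0.85) and −1.06 (−1.20 to −0.92). None of the 50-base windows of these 3 genes occurs in another gene. They were chosen after their values were seen.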
